A study of Homo sapiens with 6 samples.

Results

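A set of 48 long noncoding RNA (lncRNA) transcripts from 21 genes that carry only a clone name was examined in LNCaP prostate cancer cells and in the androgen-independent line derived from them, LNCaP-AI. The genes were selected on measured values. The study listed 245 lncRNA transcripts of 211 gene symbols as higher in LNCaP-AI on these same arrays, and the members are the listed genes whose symbol contains a period and which appear with 2 or more transcripts, each named by its Ensembl transcript and measured by a probe of its own. There were 17 genes with 2 listed transcripts, 2 genes with 3 and 2 genes with 4. Since the difference between the lines chose the members, its size and the calls made on it are given as a description and are no independent test. The sizes of change that the transcripts of 1 gene show beside each other were not part of the rule beyond its lower limit, and they take up most of what follows.

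LNCaP is an established human line from a prostate cancer metastasis that depends on androgen, and it was grown in medium with 10% fetal bovine serum. LNCaP-AI is a single line obtained by keeping LNCaP cells for a long time under androgen deprivation, in medium with 10% charcoal-stripped serum, from which steroid hormones have been removed. Total RNA from both lines, freed of ribosomal RNA, was hybridized to 6 one-color Arraystar Human LncRNA V3.0 arrays, 3 for LNCaP (replicates a, b and c) and 3 for LNCaP-AI (replicates 1, 2 and 3). The sources do not say whether replicates came from separate cultures, so their spread may be technical. The serum and the long culture differ together between the lines and cannot be told apart, and in bulk RNA fewer cells with a transcript cannot be told apart from less of it in each cell. The lines' prostate markers were not analysed here because the files do not pair probes with gene names. For the same reason, any transcripts of the 21 genes that were not listed were not analysed.

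LncRNAs are transcripts with little or no capacity to code for protein. Many come from genes that are spliced in several ways or started at several sites, so that 1 locus gives several transcripts, which share some exons and differ in others. An array probe reads only the short stretch that it matches, and 2 probes of a gene can therefore follow the same RNA or different ones. Names such as RP11-325I22.2 or AC007319.1 are built from the genomic clone in which the gene was annotated and were used where no official symbol had been given. They say nothing about function, and no role is assigned to any of the 21 genes here. None of the 21 names matched a RefSeq symbol or synonym, so neither positions nor sequences are printed.

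The share of probes well above background ran from 64.5% to 67.2% over the arrays, and no member spot was saturated or marked as an outlier. A probe counted as detected on an array where the scanner software called it well above background. The values below are the deposited intensities in arbitrary fluorescence units, after background subtraction by that software, whereas changes are differences of quantile-normalized log2 values. Intensity depends on a probe's sequence as well as on RNA, so intensities are compared between arrays for 1 probe and do not rank the probes. LNCaP replicates a and b lay on slide 1, and LNCaP replicate c lay on slide 2 with all 3 LNCaP-AI arrays.

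All 48 transcripts were detected on all 3 LNCaP-AI arrays, and each was higher on all 3 than on any of the 3 LNCaP arrays. In the limma fit every one of the 48 was called higher in LNCaP-AI (adjusted p below 0.05, change of 2-fold or more), and so were 2.82% of the 39105 tested probes. All 48 also passed the limits of the methods' t-test, which 2.27% of tested probes passed in this direction, and 16.5% of tested probes had every LNCaP-AI array above every LNCaP array. These counts follow from how the members were chosen, and nothing is read from them. The median log2 change of the 48 was 1.81, or 1.64 with partly detected or undetected transcripts set to their lower bound, beside -0.02 over all tested probes. The members closest to the 2-fold limit were RP11-30J20.1 ENST00000524346 at 2.002-fold and RP11-839D17.3 ENST00000526487 at 2.01-fold, and the nearest probes outside it lay at 1.999-fold and 1.997-fold.

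**Figure D1:**
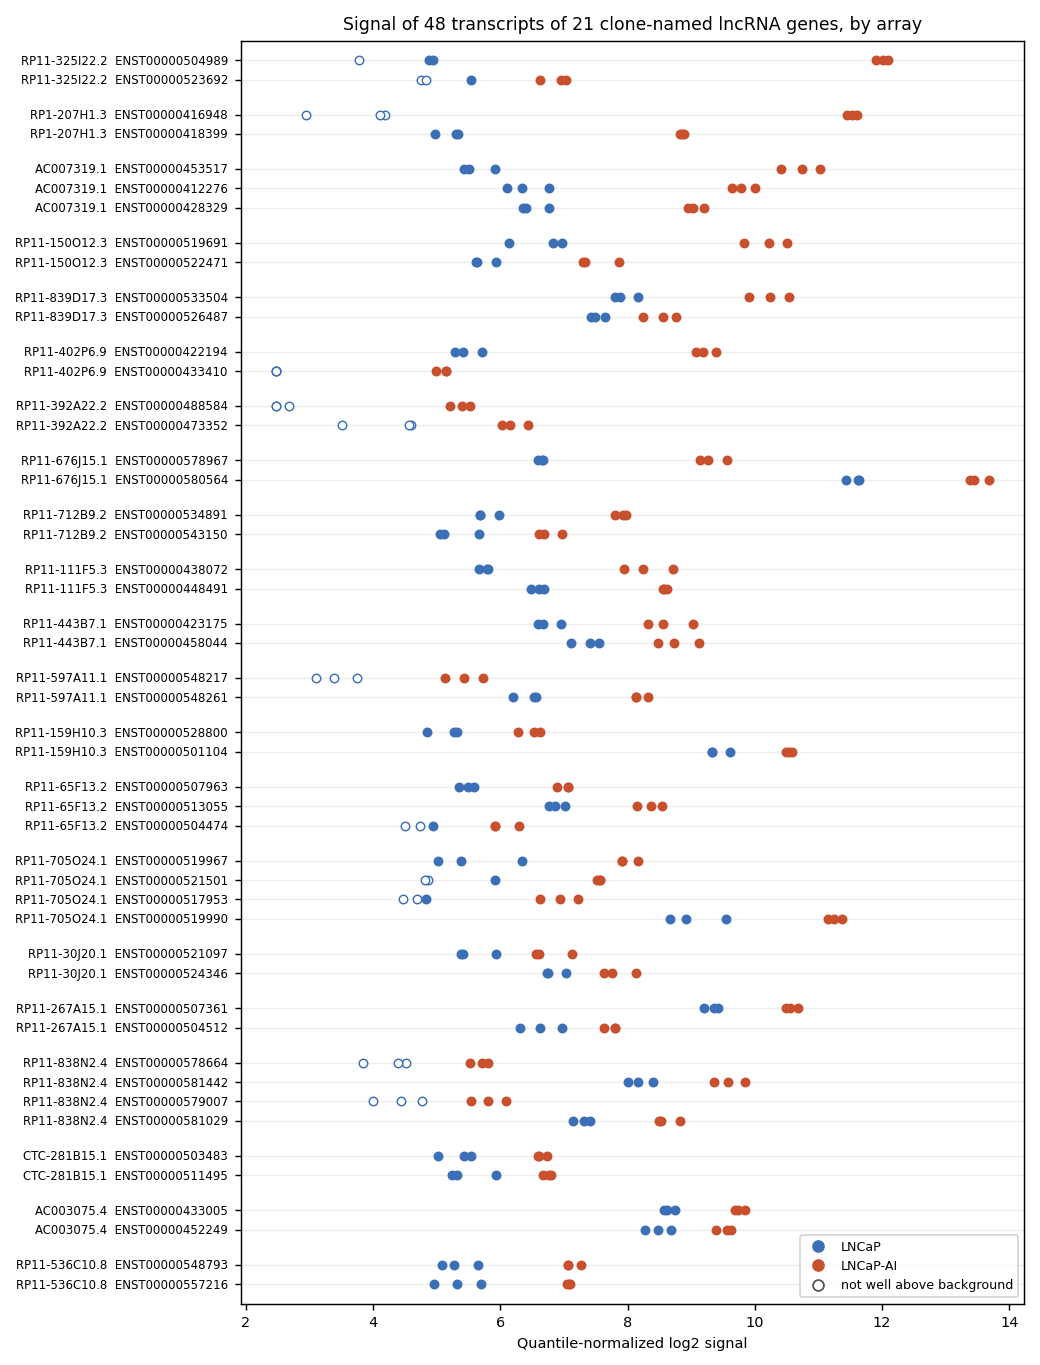
Quantile-normalized log2 signal (x axis) of each of the 48 transcripts (rows, grouped by gene) on the 3 LNCaP arrays (blue) and the 3 LNCaP-AI arrays (orange), with 1 point per array and open points where the probe was not well above background. In every row the 3 LNCaP-AI points lie above the 3 LNCaP points, and open points occur only in LNCaP, in 12 of the 48 rows.

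Detection separated the transcripts into 3 classes. In LNCaP, 36 were detected on all 3 arrays, 5 on 1 or 2 arrays and 7 on none. In 13 genes every listed transcript was detected on all 6 arrays. In 4 genes (RP1-207H1.3, RP11-402P6.9, RP11-597A11.1 and RP11-838N2.4), transcripts detected on all 6 arrays stood beside others detected on no LNCaP array. RP11-392A22.2 was the only member gene with no listed transcript detected on any LNCaP array. Where a transcript was detected on fewer than 3 LNCaP arrays its change is given as a lower bound, computed against the higher of its own signal and the dimmest detected probe on each array that missed it. Each bound is for the means of the lines with the software's background subtraction. Under the other background correction described below, some fitted changes fell under these bounds.

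The largest fitted gap between transcripts of 1 gene was in RP11-325I22.2. ENST00000504989 gave 35.9, 27.0 and 13.6 on the LNCaP arrays a, b and c, in that order, and 3941, 4433 and 3825 on LNCaP-AI arrays 1, 2 and 3. ENST00000523692 gave 31.5, 26.1 and 46.0 in LNCaP and 109, 144 and 94.1 in LNCaP-AI. Both sat close to the detection limit in LNCaP, the first detected on arrays a and b and the second on array c alone, and they parted in LNCaP-AI. With the software's background subtraction, the change was at least 139-fold for the first and at least 3.49-fold for the second. On the log2 scale the fitted changes of 7.48 and 1.83 differed by 5.65 ± 0.64 (SE of the differences per array, n = 3 arrays per line), a value that includes LNCaP signals below the detection limit for both.

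RP1-207H1.3 showed a similar arrangement. ENST00000416948 gave 21.1, 6.76 and 17.3 in LNCaP, detected on none of the arrays, and 2798, 3269 and 2811 in LNCaP-AI, a change of at least 104-fold. ENST00000418399 gave 46.1, 28.8 and 40.4 in LNCaP, detected on all 3, and 401, 539 and 423 in LNCaP-AI, a change of 12.5-fold. The bound of the first transcript therefore lay above the measured change of the second, by 3.04 on the log2 scale with the software's background subtraction. With the normexp correction described below, the fitted gap was smaller, at 2.85 with no offset and 2.62 with an offset of 50.

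AC007319.1 had the widest gap among the genes detected throughout, and its 3 listed transcripts had 3 distinct sizes of change. ENST00000453517 gave 50.6, 55.4 and 45.3 in LNCaP and 1201, 2408 and 1617 in LNCaP-AI, which was 34.4-fold and the largest change of any member detected on all 6 arrays. ENST00000412276 gave 132, 63.2 and 80.0 in LNCaP against 895, 925 and 825 in LNCaP-AI, which was 10.6-fold. ENST00000428329 gave 132, 75.5 and 83.6 against 512, 562 and 491, which was 5.84-fold. The 3 LNCaP-AI arrays ranged more widely for ENST00000453517 than for the others, with replicate 2 highest, also after normalization. The fitted log2 changes were 5.10 ± 0.20, 3.41 ± 0.19 and 2.55 ± 0.15 (SE, limma, n = 3 arrays per line), and the highest and the lowest differed by 2.56 ± 0.36.

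In RP11-150O12.3 the transcripts differed by 1.77 ± 0.24. ENST00000519691 gave 151, 64.8 and 111 in LNCaP and 1289, 1051 and 1115 in LNCaP-AI, or 11.7-fold. ENST00000522471 gave 72.1, 45.1 and 49.1 against 202, 177 and 148, or 3.42-fold. After normalization both transcripts were highest in LNCaP on array a and in LNCaP-AI on array 1. In RP11-839D17.3, ENST00000533504 gave 355, 204 and 229 in LNCaP and 1325, 1101 and 1126 in LNCaP-AI (4.86-fold), while ENST00000526487 gave 244, 165 and 168 against 376, 342 and 347 (2.01-fold). After normalization these too were highest on arrays a and 1, and their log2 changes differed by 1.28 ± 0.07.

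The sixth gene with a gap of at least 1 on the log2 scale was RP11-402P6.9, and here the order of the transcripts is not settled. ENST00000422194 was detected on all 6 arrays, at 45.6, 39.1 and 52.3 in LNCaP and 584, 665 and 505 in LNCaP-AI (13.4-fold). ENST00000433410 gave 6.44, 5.37 and 5.71 in LNCaP, which was the lowest signal on each of those arrays, and 32.7, 37.0 and 30.9 in LNCaP-AI. Only a change of at least 1.20-fold can be stated for it, so the fitted gap of 1.12 ± 0.14 compares a measured change with one that has no upper limit.

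**Figure D2:**
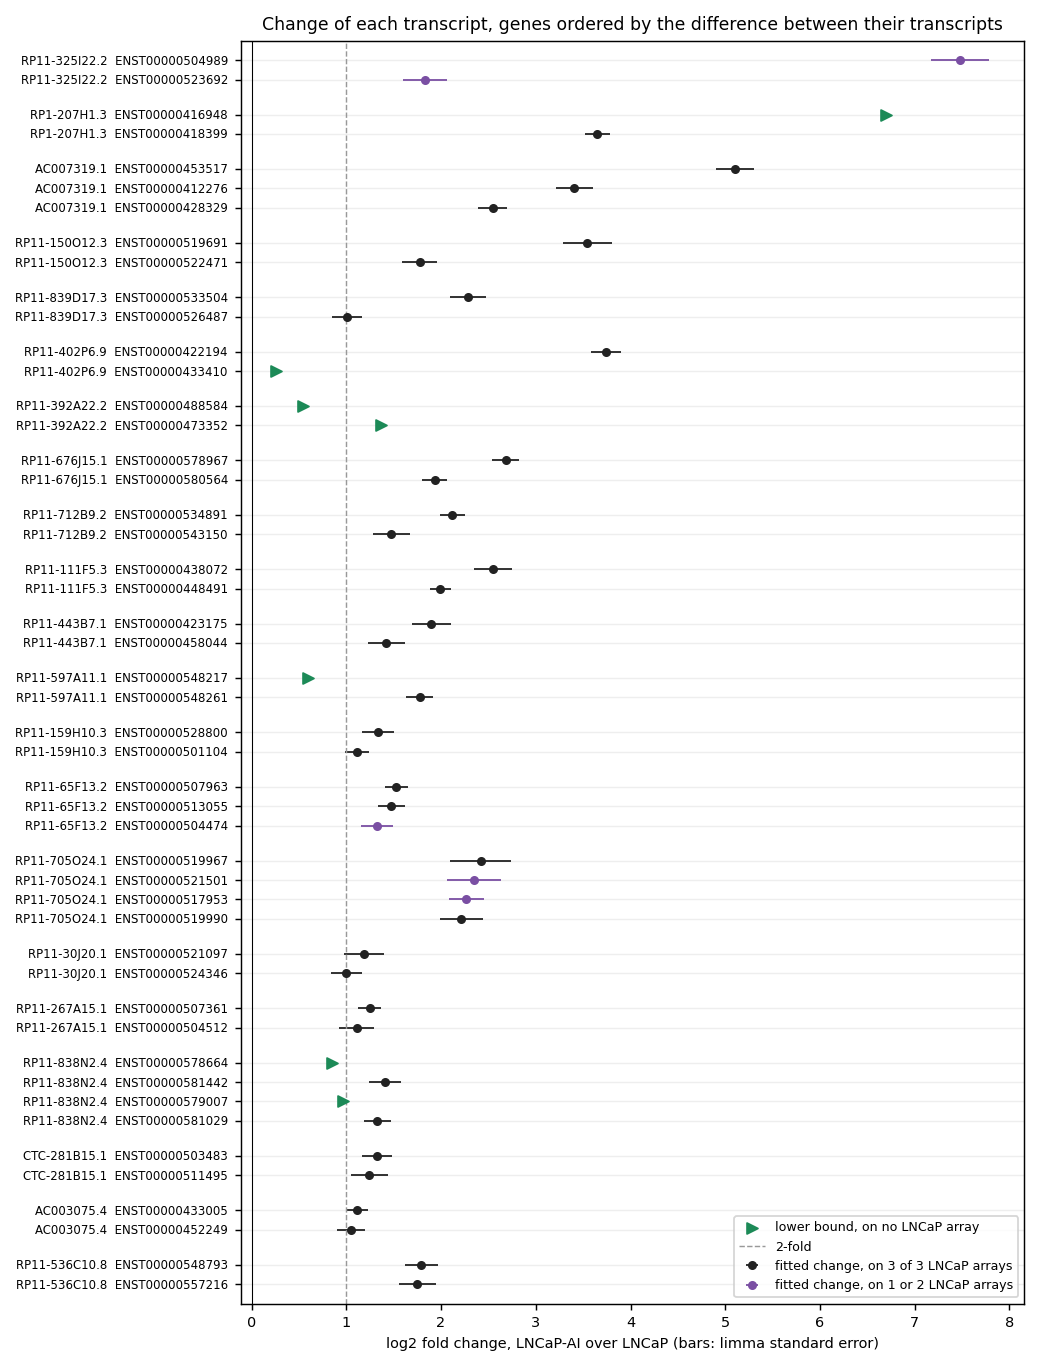
Log2 fold change of LNCaP-AI over LNCaP (x axis) of each transcript, with genes ordered by the gap between their fitted changes; points are limma estimates with standard errors (black, detected on all 3 LNCaP arrays; purple, on 1 or 2), and green triangles are lower bounds of transcripts detected on no LNCaP array. The transcripts of the upper genes lie far apart, from 7.48 to 1.83 in RP11-325I22.2, and those of the lowest gene lie at 1.79 and 1.75.

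In 4 further genes, all detected on all 6 arrays, the gap was below 1 but the signal difference between the transcripts on the LNCaP-AI arrays did not overlap that on the LNCaP arrays. For comparison, 66% of pairs of member transcripts from different genes did not overlap, counting gaps of any size and undetected transcripts. With both transcripts detected on all LNCaP arrays the share was 67.5%, again at any gap. In RP11-676J15.1, ENST00000580564 gave 3933, 2833 and 2533 in LNCaP and 12021, 12194 and 10260 in LNCaP-AI (3.81-fold). Its second transcript, ENST00000578967, gave 123, 89.1 and 99.1 against 662, 640 and 579 (6.42-fold). In RP11-712B9.2 the changes were 4.35-fold for ENST00000534891 and 2.78-fold for ENST00000543150. In RP11-443B7.1 they were 3.72-fold for ENST00000423175 and 2.68-fold for ENST00000458044, a gap of 0.47 ± 0.07.

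RP11-111F5.3 was the fourth of them. ENST00000438072 gave 65.4, 51.1 and 50.5 in LNCaP and 365, 276 and 282 in LNCaP-AI (5.86-fold). ENST00000448491 gave 118, 94.8 and 87.7 against 329, 448 and 350 (3.98-fold). After normalization the first was highest in LNCaP-AI on array 1 and the second on array 2, and the gap of 0.56 ± 0.24 was uneven among the 3 arrays.

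The genes with 4 listed transcripts differed from AC007319.1 in that the fitted changes of their transcripts lay close together. In RP11-705O24.1 the fitted log2 changes lay between 2.22 and 2.42. ENST00000519990 gave 933, 371 and 460 in LNCaP and 2383, 2636 and 2302 in LNCaP-AI (4.64-fold), and ENST00000519967 gave 97.1, 29.6 and 41.5 against 248, 268 and 226 (5.34-fold). ENST00000521501 gave 71.4, 26.7 and 28.2 against 165, 209 and 172, and ENST00000517953 gave 33.4, 20.2 and 25.9 against 131, 135 and 94.0. All 4 transcripts were highest in LNCaP on array a, also after normalization. ENST00000521501 and ENST00000517953 were detected in LNCaP on array a alone, with changes of at least 5.06-fold and at least 4.23-fold.

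In RP11-838N2.4 the fitted log2 changes lay between 1.33 and 1.43. ENST00000581442 gave 420, 261 and 249 in LNCaP and 806, 755 and 711 in LNCaP-AI (2.66-fold), and ENST00000581029 gave 208, 146 and 140 against 393, 417 and 335 (2.51-fold). ENST00000579007 gave 31.9, 19.7 and 16.0 against 60.7, 49.0 and 53.3, and ENST00000578664 gave 26.5, 19.2 and 14.4 against 50.7, 48.8 and 50.02. ENST00000579007 and ENST00000578664 were detected on no LNCaP array, and their bounds of at least 1.96-fold and at least 1.80-fold fall short of 2-fold, so the closeness of all 4 rests in part on signal below the detection limit.

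RP11-65F13.2 had 3 listed transcripts, with fitted log2 changes between 1.32 and 1.53. ENST00000513055 gave 140, 119 and 106 in LNCaP against 322, 319 and 306 in LNCaP-AI (2.78-fold). ENST00000507963 gave 56.7, 41.2 and 40.5 against 117, 130 and 127 (2.89-fold). ENST00000504474 gave 36.01, 24.2 and 22.6 against 54.7, 85.0 and 57.9, was detected in LNCaP on array a alone, and changed by at least 2.23-fold.

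The 3 smallest gaps were in RP11-536C10.8, AC003075.4 and CTC-281B15.1, whose transcripts were all detected on all 6 arrays. In RP11-536C10.8, ENST00000548793 gave 44.9, 45.9 and 33.9 in LNCaP and 117, 169 and 126 in LNCaP-AI, and ENST00000557216 gave 46.9, 47.4 and 30.9 against 118, 146 and 129. After normalization both were highest in LNCaP on array b and lowest on array c, with changes of 3.47-fold and 3.36-fold and a gap of 0.04 ± 0.10. In AC003075.4, ENST00000433005 gave 487, 391 and 370 against 805, 948 and 792, and ENST00000452249 gave 383, 373 and 344 against 691, 769 and 701, with a gap of 0.06 ± 0.09. In CTC-281B15.1, ENST00000503483 gave 54.5, 29.7 and 43.1 against 94.2, 105 and 92.9, and ENST00000511495 gave 72.0, 36.6 and 37.6 against 90.1, 118 and 105, with a gap of 0.08 ± 0.20. All 3 gaps were smaller than their standard errors, which with 3 arrays per line does not show that the transcripts changed equally.

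Of the remaining genes, RP11-159H10.3 (2.52-fold and 2.16-fold), RP11-267A15.1 (2.37-fold and 2.16-fold) and RP11-30J20.1 (2.28-fold and 2.002-fold) had transcripts detected on all 6 arrays with gaps of 0.22 ± 0.28, 0.14 ± 0.17 and 0.19 ± 0.10. In RP11-597A11.1, ENST00000548261 changed by 3.42-fold and ENST00000548217, detected on no LNCaP array, by at least 1.51-fold. In RP11-392A22.2 neither transcript was detected in LNCaP. ENST00000473352 gave 76.7, 70.4 and 68.1 in LNCaP-AI, at least 2.58-fold above LNCaP, and ENST00000488584 gave 42.0, 38.9 and 40.6, at least 1.46-fold above.

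**Figure D3:**
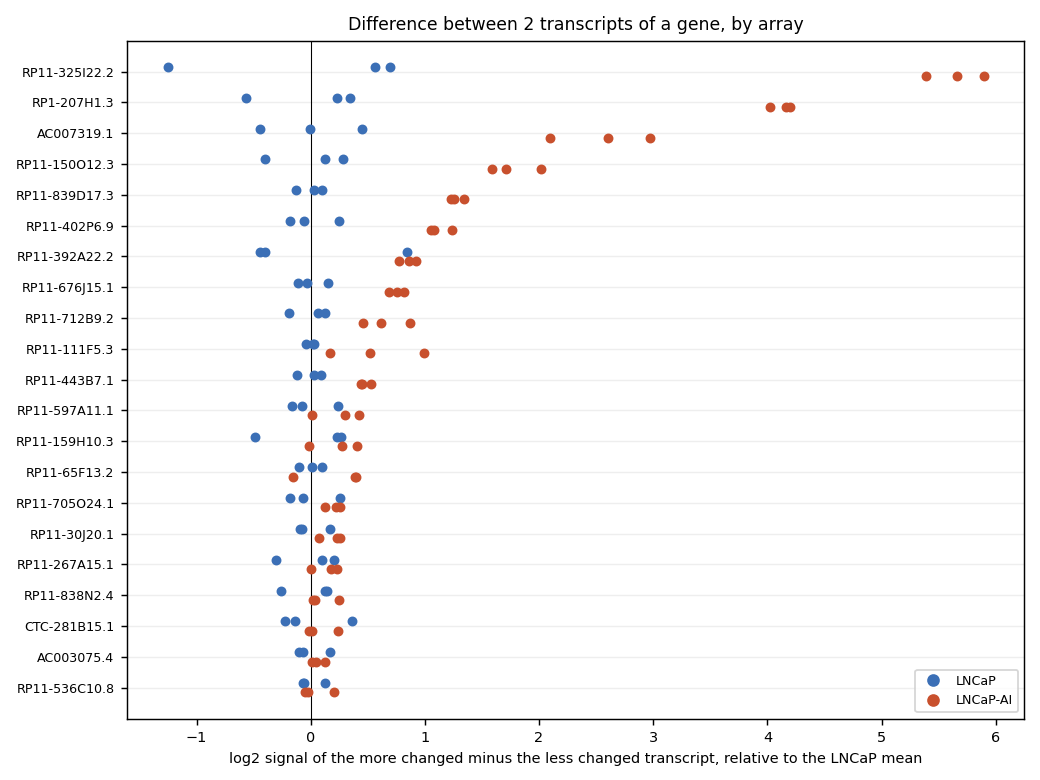
Difference in log2 signal between the most and the least changed listed transcript of each gene on every array (x axis, set to a mean of 0 over the LNCaP arrays), for LNCaP (blue) and LNCaP-AI (orange), with 1 point per array and signals below the detection limit included. The lines do not overlap in 10 of the 21 genes, 7 of them with every transcript detected on all 6 arrays, and in the lower rows the orange points fall among the blue ones. For comparison, 66% of the 1093 pairs of member transcripts from different genes did not overlap.

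In the 13 genes with every transcript detected on all 6 arrays, the median gap between the most and the least changed transcript was 0.47 on the log2 scale. Of these genes, 3 had a gap of 1 or more (AC007319.1, RP11-150O12.3 and RP11-839D17.3) and 7 had one under 0.5, and the signal difference between the transcripts did not overlap between the lines in 7. Counting the fitted values of all 21 genes, undetected transcripts included, 6 genes had a gap of 1 or more and 11 one under 0.5. Over the 35 possible pairs of transcripts within a gene, the difference did not overlap in 12 pairs (34.3%), beside 721 of 1093 pairs from different genes (66%). Over pairs with both transcripts detected on all LNCaP arrays these numbers were 9 of 18 (50%) and 413 of 612 (67.5%). The median absolute difference in log2 change was 0.19 within genes and 0.79 between genes, or 0.35 and 0.75 over the pairs with both detected. Deviations of each array from its line's mean had a median Pearson r of 0.75 within genes and 0.32 between genes. Genes with 3 or 4 listed transcripts give more pairs than genes with 2, so they weigh more in the figures within genes. These figures are descriptions, because all pairs share the same 6 arrays and only transcripts past the 2-fold limit were listed. The probe sequences were not used here, and whether probes of a gene match the same exon was not tested.

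Among the 36 transcripts detected on all 6 arrays, changes ran from 2.002-fold to 34.4-fold with a median of 3.39-fold. There were 17 under 3-fold and 9 at 5-fold or more, and 3 of those 9 belonged to AC007319.1.

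The 48 members were set beside 2 other groups of the same list, leaving out its 20 transcripts of officially named genes listed once. Detection on all 6 arrays was found for 75% of them, for 56.97% of the 165 transcripts of clone-named genes listed once, and for 83.3% of the 12 transcripts of 5 officially named genes listed several times. No LNCaP array detected 14.6%, 32.7% and 8.33% of these groups. The median fold over transcripts detected on all 6 arrays was 3.39, 2.60 and 2.26. All of these groups were chosen on the same contrast, so the figures describe the list and no difference between them was tested.

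**Figure D4:**
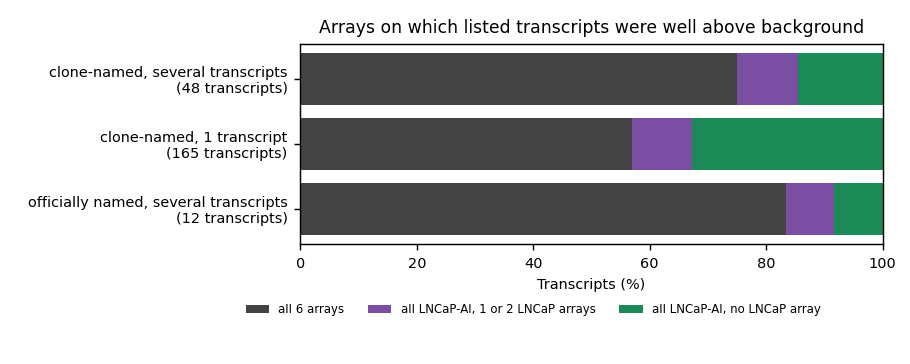
Share of listed transcripts (x axis, percent) detected on all 6 arrays (gray), on all LNCaP-AI arrays and 1 or 2 LNCaP arrays (purple) or on all LNCaP-AI arrays and no LNCaP array (green), for the 48 members, the 165 transcripts of clone-named genes listed once and the 12 transcripts of officially named genes listed several times. The gray shares are 75%, 56.97% and 83.3%.

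Slide was partly shared with line, so each transcript was also compared on slide 2 alone, where LNCaP is represented by replicate c. All 48 members had all 3 LNCaP-AI arrays above it, as did 28.5% of tested probes, and all 48 were at least 2-fold higher, with a median log2 difference of 2.02 and a lowest value of 1.05. With slide as a block limma called 41 of the 48 and 851 of all tested probes, and that estimate rests on 1 LNCaP array. The members were chosen on these same arrays, so nothing is read from these counts. Among the genes detected throughout, the gaps of AC007319.1 (2.57), RP11-150O12.3 (1.49) and RP11-839D17.3 (1.25) stayed over 1 on slide 2.

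Background correction moved the members' median change more than any other alternative run. With the software's subtraction, all 48 members and 1103 of all tested probes had been called. Normexp models background instead of taking that subtraction. With normexp and an offset of 50, 27 of the 48 and 470 of all tested probes were called, and the members' median log2 change was 1.06. With normexp and no offset, 40 of the 48 and 792 of all tested probes were called, and the median was 1.41. All 48 changes stayed positive under both. ENST00000504989 of RP11-325I22.2 went from 7.48 to 5.53 with the offset, ENST00000416948 of RP1-207H1.3 from 7.78 to 5.16, and ENST00000453517 of AC007319.1 from 5.10 to 3.85, whereas ENST00000580564 of RP11-676J15.1, at an intensity of 2533 or more on every array, went from 1.93 to 1.90. Of the 16 alternatives, 12 could move a gap. Under these, the most and least changed transcripts kept their order in 8 of the 13 genes detected throughout, among them AC007319.1, RP11-150O12.3 and RP11-839D17.3, and turned under at least 1 in the other 5. Among genes with 3 or 4 listed transcripts, those whose fitted changes lay close together were spread by the offset. The gap rose to 1.01 in RP11-705O24.1, 0.87 in RP11-838N2.4 and 0.61 in RP11-65F13.2, from 0.20, 0.10 and 0.21. In RP11-705O24.1 the transcripts that had been the most and the least changed then differed by -0.64. The closeness of the transcripts in these 3 genes therefore depends on how background is treated. By contrast, the 3 smallest gaps stayed small with the offset, at 0.04 in RP11-536C10.8, 0.06 in AC003075.4 and 0.01 in CTC-281B15.1. The offset also narrowed the gaps below 1 that had not overlapped between the lines, though the order held. The gap went from 0.75 to 0.16 in RP11-676J15.1 and from 0.56 to 0.16 in RP11-111F5.3. It went from 0.47 to 0.24 in RP11-443B7.1 and from 0.65 to 0.58 in RP11-712B9.2.

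**Figure D5:**
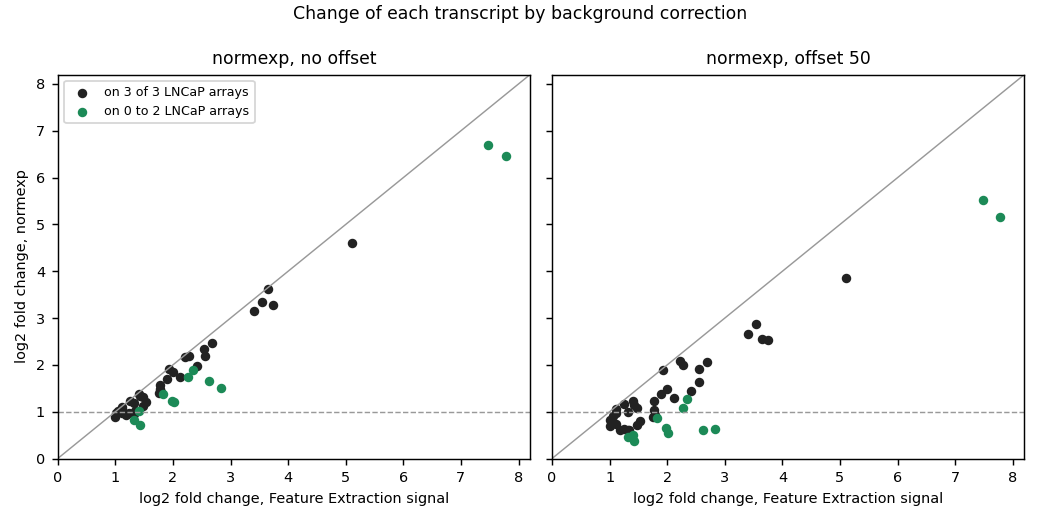
Log2 fold change of each of the 48 transcripts with the software's background-subtracted signal (x axis) against normexp correction (y axis), with no offset (left) and an offset of 50 (right); black points were detected on all 3 LNCaP arrays and green points on 0 to 2, the diagonal marks equality and the dashed line 2-fold. In both panels all 48 points lie below the diagonal, and with the offset the members called number 27 of 48, beside 470 of all tested probes.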

How the data were processed

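The members and the lists compared were chosen with earlier results of these data known. The study's list gave names only, read from the text of its pages, and all 48 members were found on the arrays by probe name, each with 1 spot. The authors scanned the arrays and deposited, per array, background-subtracted intensity values and well-above-background flags from Agilent Feature Extraction 11.0.1.1. Per the methods, values were then quantile normalized. Here intensities (floor 1) were log2 transformed and quantile normalized over 58965 probes, leaving out control spots, 600 spots named as negatives and outlier spots. Probes detected on at least 3 of 6 arrays were tested with limma 3.58.1 in R 4.3.3, with Benjamini-Hochberg adjustment. All member genes are named, with intensities in full for those with 3 or 4 transcripts, 4 example genes and the 3 largest and 3 smallest gaps, and for some others chosen after their values were seen. The limits of the methods' t-test were a fold over 2 and an unadjusted p under 0.01. The calculation was tested on simulated data. Precision is limited by 3 arrays per line. Alternatives changed the scaling, background correction, filter, outlier spots, slide, variance model, array weights, thresholds, test and arrays included.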

Additional observations from a re-analysis of the deposited data

Results flagged for a closer look

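One probe that the array design names as a negative, Negative047, with 10 spots per array, was 38.0-fold higher in LNCaP-AI, with 12.0, 8.94 and 9.81 on the LNCaP arrays a, b and c, in that order, against 435, 362 and 365 on LNCaP-AI arrays 1, 2 and 3. All 10 of its spots were well above background on each LNCaP-AI array and none on any LNCaP array. Of the 60 negative probes, 2 were at least 2-fold higher in LNCaP-AI and 0 were at least 2-fold lower, and no negative probe entered the normalization or the tests.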

How the results depend on the processing

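With normexp and an offset of 50, limma called 27 of the 48 members and 470 of all tested probes, where 48 and 1103 had been called. The methods' t-test limits then passed 27 members, and the median log2 change was 1.06. Normexp with no offset gave a median of 1.41. On slide 2 alone 484 tested probes and 32 members were called, with 1 LNCaP array assumed to vary like the LNCaP-AI arrays. Without a minimum fold 2887 tested probes were called. Leaving out 1 array at a time gave 44 to 48 members and 971 to 1308 tested probes called by limma. The t-test limits then passed 34 to 41 members, and the share of all tested probes past them is not given. The members' median log2 change was 1.70 to 1.91, and 6 to 7 genes had a gap of at least 1. The member called in the fewest of these 6 fits was RP11-839D17.3 ENST00000526487, in 2. Of 768 single-member values under the alternatives, 0 changed sign and 77 lost the call, though 4 of the 16 alternatives leave the members' changes almost as they were by construction. A filter requiring detection on all 6 arrays leaves 36 members by construction. For the 12 members detected on fewer than 3 LNCaP arrays, signal over background limits the change to a bound. No paired analysis was possible because replicate numbers are not shared between the lines.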
